A study of Rattus norvegicus with 3 samples.

Results

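Enzymes that dispose of aldehydes and oxidise amines were followed across 3 oligonucleotide arrays of rat thoracic aorta. The members are 9 genes given by name: the aldehyde dehydrogenases Aldh2, Aldh7a1, Aldh1a1 and Aldh3a2, the class III alcohol dehydrogenase Adh5, the carbonyl reductase Cbr1, the aldose reductase Akr1b1, and the monoamine oxidases Maoa and Maob. They were found as every probe set (a group of short probes for 1 transcript) to which the platform annotation gives exactly 1 gene symbol, that symbol being a member. This yielded 15 of the 7006 probe sets with 1 symbol, and 9 of the 4736 genes these stand for. No further probe set carried a member's symbol among several. Each of 5 members had more than 1 probe set, and Aldh2, Aldh1a1, Adh5 and Maob had 1 each.

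Total RNA came from Sprague Dawley rats treated over 20 days. The control group received water (1 ml/kg), and the others received allylamine, one at 35 mg/kg and one at 70 mg/kg. There was 1 array per group. The labels use the plural, rats, for every group, but the number of animals behind each array, their age and sex and the route of dosing are not stated in the sources used here. With 1 array per group no error between animals can be given, and no difference below has a test or a p-value. Because the tissue was measured in bulk, fewer cells of a type and less RNA per cell cannot be told apart.

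Allylamine is an unsaturated amine used to injure arteries and heart experimentally. In the vessel wall a semicarbazide-sensitive amine oxidase turns it into acrolein, a reactive aldehyde, and releases hydrogen peroxide and ammonia. Aldehyde dehydrogenases oxidise aldehydes to carboxylic acids with NAD or NADP, whereas carbonyl and aldo-keto reductases reduce them to alcohols with NADPH. Monoamine oxidases are flavoproteins of the outer mitochondrial membrane that deaminate amines such as noradrenaline, serotonin and dopamine, and so produce aldehydes and hydrogen peroxide themselves. The values bear on how transcripts of these enzymes stood at each dose.

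Intensities were scaled to a common median, and values at or below an intensity of 188 (the floor, the 40th percentile of all scaled values) are called below the floor and have no order among themselves. A difference is a log2 ratio of scaled intensities between 2 arrays, for probe sets above the floor on both, and a gene's difference is the median over its measured probe sets. A difference of at least 2-fold (1 on the log2 scale) is counted as higher or lower. A probe set above the floor on 1 array only gets a bound against the floor, written as at least so many fold.

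The arrays differed widely from one another. Over 8740 probe sets, Pearson's r of the log2 values with the control array was 0.70 for 35 mg/kg and 0.48 for 70 mg/kg, and r was 0.59 for the 2 dosed arrays. A median of 3.81 times the control signal at 35 mg/kg and 28.8 times at 70 mg/kg was seen for the 9 probe sets of bacterial and phage control transcripts, which are not aortic RNA. The 3' over 5' ratio of cytoskeletal actin was 0.376, 0.542 and 1.42 on the control, 35 mg/kg and 70 mg/kg arrays, and that of Gapdh was 0.175, 0.318 and 0.226. Probe sets of the same gene differed from each other in their log2 difference with a pooled SD of 1.40 (70 mg/kg minus control), 1.08 (35 mg/kg minus control) and 1.22 (70 minus 35 mg/kg). This SD is a spread between different probe sets of a gene, not between repeat arrays. It was larger than the SD of the differences of all genes, which was 1.28, 1.06 and 1.11 in the same order of comparisons. The SD between probe sets is used below as the yardstick for single genes. Of 6 smooth muscle markers on the array, 5 were above the floor on each array, though not the same 5, and they moved in different ways. Each marker value is the median over all probe sets of the gene, including any below the floor, unlike the gene differences. In control, at 35 mg/kg and at 70 mg/kg, Acta2 read 970, 190 and 583 and Tagln 668, 329 and 359. Des read 370 in control and lay below the floor at both doses. Cnn1 (218, 633 and 1580) and Myh11 (below the floor, 191 and 359) were highest at 70 mg/kg, and Myl9 (554, 1080 and 708) at 35 mg/kg. As gene differences from control, Myh11 was instead lower, at -1.20 for 35 mg/kg and -0.29 for 70 mg/kg. Acta2 was nearer level that way, at -0.28 and -0.02. Cnn1 (1.54 and 2.86) and Myl9 (0.74 and 0.46) kept their order.

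Of the 15 member probe sets, 5 lay above the floor on all 3 arrays, 6 on 2 arrays, 2 on 1 array and 2 on none. Over the 7006 probe sets with 1 symbol, 37.3% lay above the floor on all 3 arrays and 18.1% on none. Above it on 2 arrays were 9.71% (control and 35 mg/kg), 6.42% (control and 70 mg/kg) and 7.56% (both doses). Above it on 1 array were 6.77% (control), 4.65% (35 mg/kg) and 9.46% (70 mg/kg). The control and the 70 mg/kg array had 11 member probe sets each above the floor, and the 35 mg/kg array had 7. Over all 8740 probe sets, 39.9%, 40.8% and 39.3% lay below the floor on the control, 35 mg/kg and 70 mg/kg arrays. Of the 13 above the floor at least once, 4 were highest in control, 4 at 35 mg/kg and 5 at 70 mg/kg. The same split over all probe sets was not computed, so these counts only describe the member probe sets. The order of the 3 arrays was the same under 4 scalings for 12 of the 15 probe sets. The exceptions were one probe set each of Cbr1, Maoa and Akr1b1, the last below the floor on every array.

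**Figure D1:**
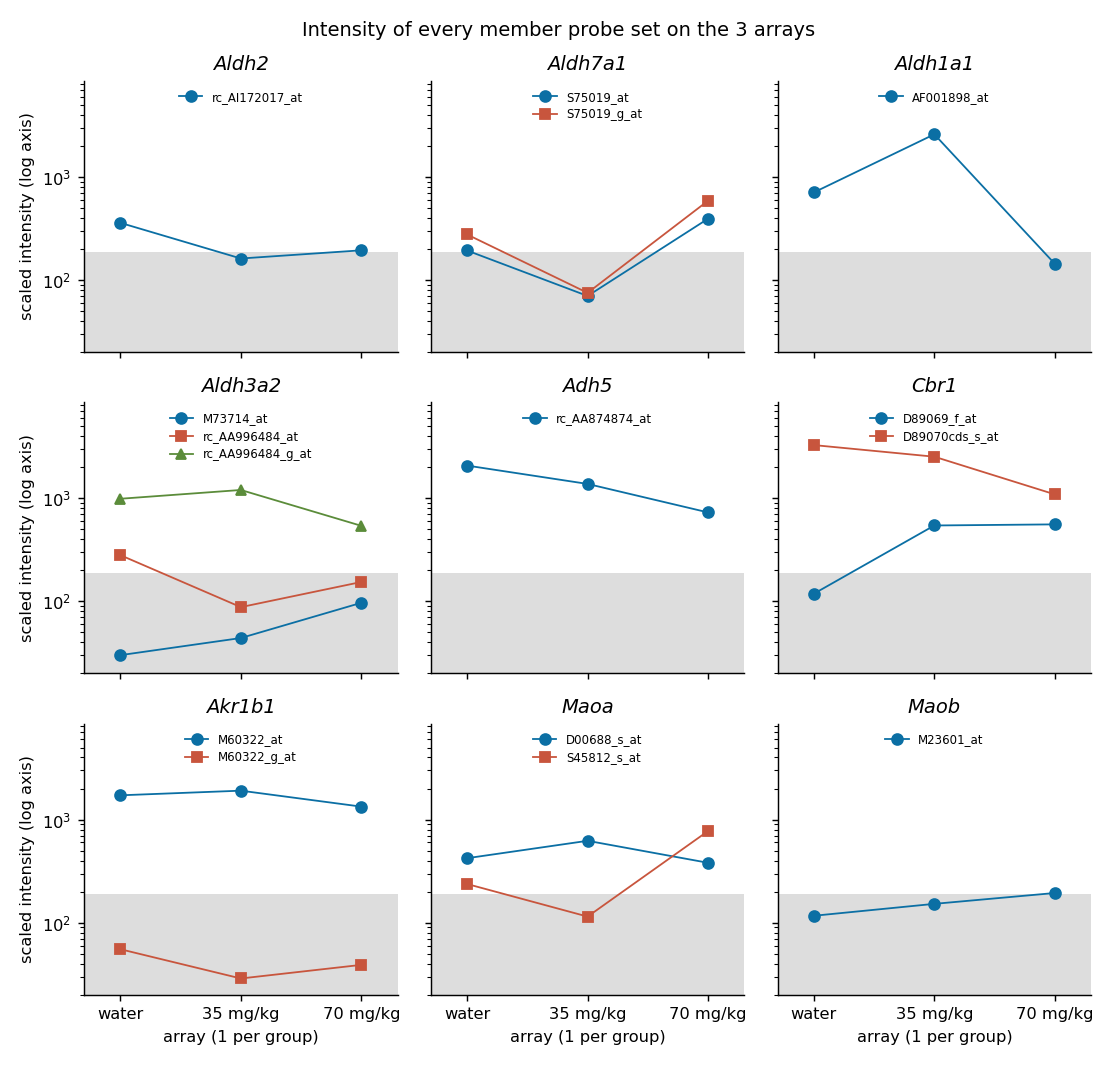
Scaled intensity (log axis) of each of the 15 member probe sets on the water, 35 mg/kg and 70 mg/kg arrays, 1 panel per gene, 1 point per array, with the region below the floor of 188 in grey. Aldh1a1 is highest at 35 mg/kg and lies below the floor at 70 mg/kg, Adh5 is lower at each dose than in control, and the probe sets of Cbr1, Maoa and Aldh3a2 cross one another or run apart.

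The largest difference of any member was that of Aldh1a1, the cytosolic retinaldehyde dehydrogenase that makes retinoic acid and also oxidises lipid aldehydes. Its only probe set had scaled intensities of 706 in control, 2588 at 35 mg/kg and 143 at 70 mg/kg. It was therefore among the bright probe sets at 35 mg/kg and below the floor at 70 mg/kg. On each array's own ranking this is the 76.7th, the 95.6th and the 30.4th percentile of probe sets, a measure that does not depend on linear scaling. The difference at 35 mg/kg was 1.87 on the log2 scale (3.66-fold higher than control), which is 1.73 times the SD between probe sets of a gene. A larger absolute difference was seen for 7.83% of 2606 genes in that comparison. For 70 mg/kg, Aldh1a1 lay at least 3.75-fold lower than control and at least 13.7-fold lower than at 35 mg/kg. Being at least 2-fold above control at 35 mg/kg and below the floor at 70 mg/kg, a pattern described after the values of Aldh1a1 were seen, held for 81 of 7006 probe sets, or 1.16%.

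Markers of some other cells moved in part with Aldh1a1. Among the listed cell types, only the sums of fat cell and fibroblast markers were highest at 35 mg/kg. Each marker value here is again the median over all probe sets of the gene, including any below the floor. Given for control, 35 mg/kg and 70 mg/kg, endothelial (1357, 1460 and 3241) and nerve (2366, 3029 and 3433) sums were highest at 70 mg/kg. So were those of smooth muscle (2903, 2509 and 3739) and red cells (1539, 1829 and 2567). Leukocyte (2339, 832 and 1333) and heart and skeletal muscle sums (3813, 3640 and 3131) were highest in control. The summed intensity of fat cell markers, 7 of 8 of which were on the array, was 3810 in control, 6696 at 35 mg/kg and 2756 at 70 mg/kg. The fat hormone leptin (Lep) was at 1621, 3967 and 327, in the same order as Aldh1a1. Its gene differences from control were 0.15 for 35 mg/kg and -0.21 for 70 mg/kg, and the doses differed by -2.82. The size of this likeness thus depends on the summary used. The order differed for the lipid droplet proteins Cidea, at 1351, 860 and below the floor, and perilipin (Plin1), below the floor in control and at 703 and 463. Lipoprotein lipase (Lpl, at 354, 557 and 715), the brown fat marker Ucp1 (217, 402 and 576) and Fabp4 (below the floor, below the floor and 472) were highest at 70 mg/kg, where Aldh1a1 was below the floor. Cfd, another of the listed fat cell markers, was below the floor on all arrays. The summed fibroblast markers, 5 of 7 of which were on the array, were at 1877, 4838 and 3417, with none below the floor on any array. The peak of this sum at 35 mg/kg lay in decorin (Dcn, at 399, 2485 and 736), and Pdgfra was also highest there (255, 359 and 318), whereas Col1a1 (675, 1298 and 1463), Col3a1 (280, 403 and 601) and Lum (268, 293 and 300.4) were highest at 70 mg/kg. As gene differences from control, Dcn was at 2.65 for 35 mg/kg and -0.32 for 70 mg/kg, and Col1a1 at 1.13 and 1.05. The part of fat cells or fibroblasts in the Aldh1a1 values was not tested.

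The annotated promoter of Aldh1a1 is shown because this gene had the largest difference. Beside it is that of Adh5, the member that was at least 2-fold lower than control at 70 mg/kg under every setting tried. Adh5 has 1 probe set, bright on all arrays, so only the scalings among these settings could move its difference. The sequences are the 250 bases before the gene start on the gene's strand, 5' to 3', from RefSeq's GRCr8 assembly, at chr1:227537370-227537619 (plus strand) and chr2:229648307-229648556 (plus strand). Capitals mark the GC box GGGCGG, which Sp1 family factors can bind, and the CCAAT box CCAAT, each on either strand.
Aldh1a1: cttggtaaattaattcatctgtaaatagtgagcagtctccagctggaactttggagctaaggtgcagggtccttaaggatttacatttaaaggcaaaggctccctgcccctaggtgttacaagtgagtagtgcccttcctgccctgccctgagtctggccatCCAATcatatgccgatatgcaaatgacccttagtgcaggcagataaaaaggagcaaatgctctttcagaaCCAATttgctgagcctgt
Adh5: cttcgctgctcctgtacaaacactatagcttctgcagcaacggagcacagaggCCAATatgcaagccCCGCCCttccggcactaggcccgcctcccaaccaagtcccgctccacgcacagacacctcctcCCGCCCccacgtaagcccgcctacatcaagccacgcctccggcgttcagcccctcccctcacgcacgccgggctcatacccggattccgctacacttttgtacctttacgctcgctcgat
The Aldh1a1 window held 2 CCAAT boxes and 0 GC boxes, with 46.4% G and C bases, whereas the Adh5 window held 1 CCAAT box and 2 GC boxes, with 62.4% G and C bases. A match describes letters in the window and is not evidence of binding.

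Aldh2, the mitochondrial enzyme that clears acetaldehyde and 4-hydroxynonenal, was brightest in control. Its probe set read 359 in control, 162 at 35 mg/kg (below the floor) and 194 at 70 mg/kg (barely above it). The log2 difference at 70 mg/kg was -0.89, under 2-fold and 0.63 of the probe set SD in size, and 47.9% of 2462 genes had a larger absolute difference. At 35 mg/kg Aldh2 was at least 1.90-fold lower than control. Both doses thus read below control, but they share the control array, and the values at the doses lie at or near the floor.

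Aldh7a1, which oxidises the aldehyde formed in lysine breakdown and other aldehydes, was the 1 member past 2-fold in the upward direction for 70 mg/kg against control by its gene difference. Its 2 probe sets read 193 and 277 in control, 70.0 and 75.0 at 35 mg/kg, and 394 and 589 at 70 mg/kg. Both were thus below the floor at 35 mg/kg and highest at 70 mg/kg. The log2 difference at 70 mg/kg was 1.06 (1.03 and 1.09), just past the 2-fold line and 0.76 of the probe set SD. Both probe sets were designed on a single sequence and can hold the same probes, so they are not separate measurements, and 1 of them stood at 193 in control, close to the floor. Between the doses they were at least 2.09-fold and at least 3.12-fold higher at 70 mg/kg.

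Aldh3a2 encodes the fatty aldehyde dehydrogenase of the endoplasmic reticulum. The probe set rc_AA996484_g_at read 988 in control, 1202 at 35 mg/kg and 540 at 70 mg/kg, so it was lowest at 70 mg/kg. Against control the log2 difference was 0.28 for 35 mg/kg and -0.87 for 70 mg/kg, while the doses differed by -1.16 (2.23-fold lower at 70 mg/kg). A second probe set from the same accession, rc_AA996484_at, read 281 in control and lay below the floor at both doses (87.9 and 154). The third, M73714_at, was below the floor on every array. Once these are let in by a floor at the 5th percentile, the gene's difference between the doses was 0.81, of the opposite sign, and that at 35 mg/kg was -0.70.

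Adh5 encodes class III alcohol dehydrogenase, which oxidises the glutathione adduct of formaldehyde and reduces S-nitrosoglutathione. Its probe set was bright on all arrays, at 2074 in control, 1376 at 35 mg/kg and 728 at 70 mg/kg. Against control the log2 difference was -0.59 for 35 mg/kg and -1.51 for 70 mg/kg, while the doses differed by -0.92. The difference at 70 mg/kg (2.85-fold lower) was 1.08 times the probe set SD in size, and 23.8% of genes had a larger one. It lay between -1.51 and -1.35 in all 11 settings, and no second probe set carried its symbol to compare it with. Because the 1 probe set was above every floor tried, only the scalings could move this difference. The other settings left it at -1.51 by design.

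Cbr1 encodes an NADPH-dependent carbonyl reductase of quinones, prostaglandins and lipid aldehydes, and its 2 probe sets disagreed. D89070cds_s_at read 3277 in control, 2527 at 35 mg/kg and 1089 at 70 mg/kg, with log2 differences from control of -0.37 and -1.59. D89069_f_at read 118 in control (below the floor), 544 at 35 mg/kg and 558 at 70 mg/kg, so it was at least 2.89-fold and at least 2.96-fold higher at the doses. The names mark the first as shared with similar transcripts and the second as shared within a gene family, and a neighbouring gene of Cbr1 in GRCr8 is named Cbr1l1. Which transcript each probe set reads is therefore uncertain. The main gene difference of -1.59 at 70 mg/kg rests on the first probe set alone, and the one of -0.37 at 35 mg/kg does too. Once a floor at the 25th percentile admitted both, they were 0.32 and 0.91.

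Akr1b1 encodes aldose reductase, which reduces glucose and also lipid aldehydes and their glutathione adducts. M60322_at was bright and nearly level, at 1719 in control, 1907 at 35 mg/kg and 1335 at 70 mg/kg. The log2 differences from control were 0.15 and -0.36, and 88.6% and 76.7% of genes had larger absolute differences. The other probe set from the same accession, M60322_g_at, was below the floor on every array, at 55.4, 28.8 and 39.0.

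Maoa and Maob are neighbours on chromosome X in GRCr8. The probe set D00688_s_at of Maoa read 422 in control, 623 at 35 mg/kg and 381 at 70 mg/kg, while S45812_s_at read 237, 115 (below the floor) and 776. The first was thus highest and the second lowest at 35 mg/kg. At 70 mg/kg the log2 differences from control were -0.15 and 1.71, with a median of 0.78, and with the values as deposited that of the first probe set was 0.00107. At 35 mg/kg the first differed by 0.56, and the second was at least 1.26-fold lower than control. Between the doses the first differed by -0.71, and the second read higher at 70 mg/kg by at least 4.12-fold. No direction can be given for Maoa from these 2 probe sets. The names of both mark them as shared with similar transcripts, so which transcript each reads is uncertain. Maob read 117 and 152, both below the floor, and 194 at 70 mg/kg, which is at the floor's edge, so its transcript was barely measured on any array.

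The promoters of this gene pair are shown because the neighbours differ in how well they were measured and GC boxes are a known feature of both monoamine oxidase promoters. They lie at chrX:8681373-8681622 (minus strand) and chrX:8490155-8490404 (plus strand) in GRCr8, and capitals mark the same motifs as above.
Maoa: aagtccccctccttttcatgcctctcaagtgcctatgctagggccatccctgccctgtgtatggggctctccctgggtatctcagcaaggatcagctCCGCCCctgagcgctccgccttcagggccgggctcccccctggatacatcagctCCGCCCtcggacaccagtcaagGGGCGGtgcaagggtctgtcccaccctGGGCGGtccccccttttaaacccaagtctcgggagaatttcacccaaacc
Maob: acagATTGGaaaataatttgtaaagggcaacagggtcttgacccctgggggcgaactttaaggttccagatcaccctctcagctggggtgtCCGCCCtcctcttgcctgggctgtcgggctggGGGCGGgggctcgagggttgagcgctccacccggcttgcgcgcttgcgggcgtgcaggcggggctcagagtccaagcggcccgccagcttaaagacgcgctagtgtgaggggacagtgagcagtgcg
The Maoa window held 4 GC boxes and 0 CCAAT boxes, and the Maob window 2 GC boxes and 1 CCAAT box, with 62.4% and 63.6% G and C bases. RefSeq promoters were found for 7 of the 9 members, those other than Aldh2 and Akr1b1. Of these 7 windows, 5 held a GC box and 5 a CCAAT box, against 30.5% and 34.0% of 33469 rat promoter windows of the same length. The core of the antioxidant response element, TGACNNNGC, and the TATA box TATAAA, both searched on either strand, were in 0 of the 7, against 10.1% and 12.9% of all windows. Their median share of G and C was 62.4%, against 51.2% over all windows.

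**Figure D2:**
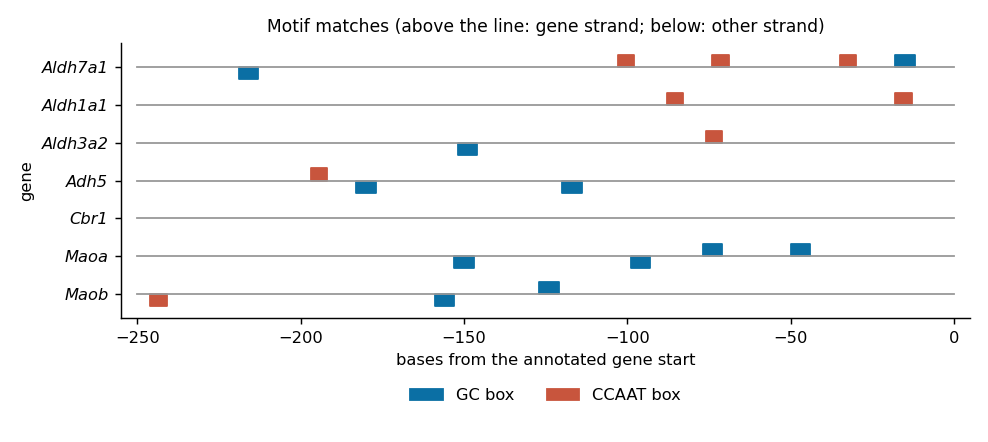
Positions of GC boxes and CCAAT boxes in the 250 bases before the annotated start of the 7 members with a RefSeq promoter, with matches on the gene's strand above each line and on the other strand below. Maoa has 4 GC boxes and Maob 2, Aldh1a1 has CCAAT boxes only, and Cbr1 has no match.

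The members' counts are set beside those of all genes as a description, since a member below the floor on an array drops out. At 70 mg/kg, 7 of the 9 members were measured in both groups, of which Aldh7a1 was at least 2-fold higher and Adh5 and Cbr1 at least 2-fold lower. These 3 are 42.9% of the 7, and 42.9% of 2462 genes passed the same line, 19.7% higher and 23.2% lower. The members' median log2 difference was -0.87, against -0.06 over all genes. It was -0.43 with a floor at the 5th percentile and -0.36 at the 25th, where all 9 members were measured. At 35 mg/kg, 6 members were measured, and Aldh1a1 was the 1 past the line, which is 16.7%, against 33.1% of 2606 genes (16.8% higher and 16.3% lower). The members' median was 0.22, against 0.04 over all genes, and it was -0.24 with a floor at the 5th percentile. Between the doses 5 members were measured and all 5 read lower at 70 mg/kg, by a median of -0.71 against -0.06 over all genes. With a floor at the 5th percentile, where all 9 were measured, that median was 0.26. Maoa was at 1.02 in place of -0.71 once the floor was lowered to the 25th percentile, where 8 members were measured. Of the 5, 1, Aldh3a2, passed the line, or 20.0%, against 35.3% of 2459 genes (14.4% higher and 20.9% lower). The other 4 members were below the floor on 1 or both of these arrays, and where a bound was possible it was higher at 70 mg/kg for Aldh2, Aldh7a1 and Maob and lower for Aldh1a1. The comparisons of the doses with control share the control array, so they are not separate evidence of a direction. The control transcripts were brightest (28.8 times) and the actin ratio highest (1.42) on the 70 mg/kg array, while the Gapdh ratio was highest at 35 mg/kg (0.318), and their part in these values was not tested.

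**Figure D3:**
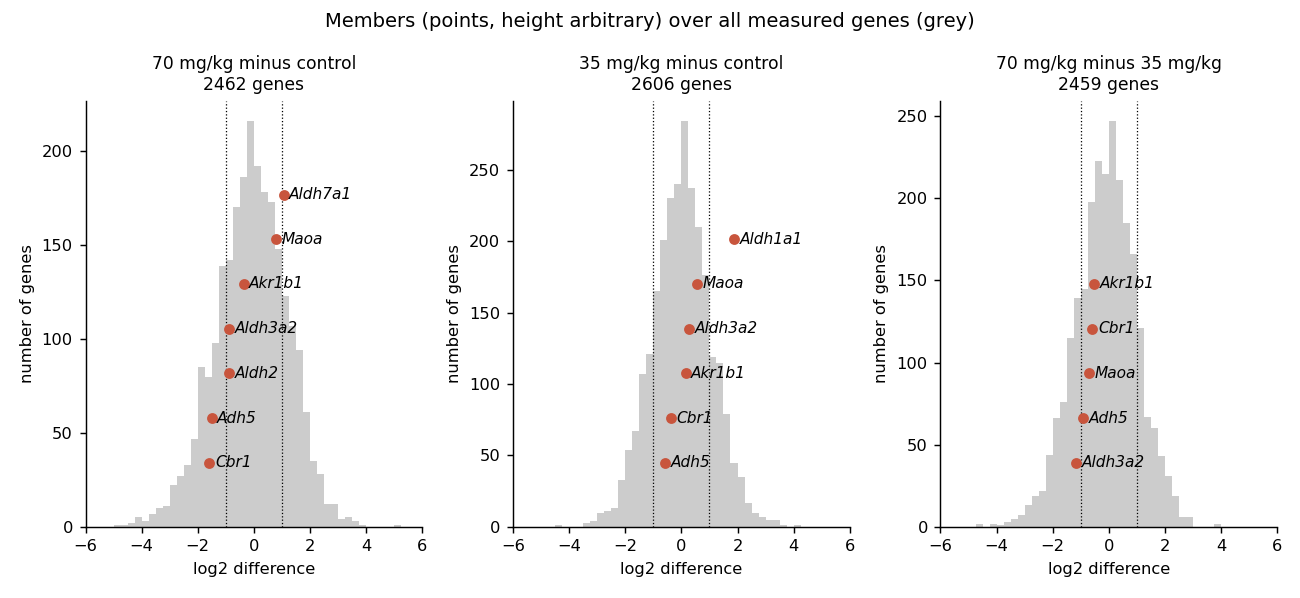
Histograms of the log2 differences of all measured genes (grey) in the 3 comparisons, with the measured members as points at arbitrary height and dotted lines at 2-fold. Aldh1a1 at 35 mg/kg is the point farthest from 0, at 1.87, and all 5 points in the last panel lie below 0.

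**Figure D4:**
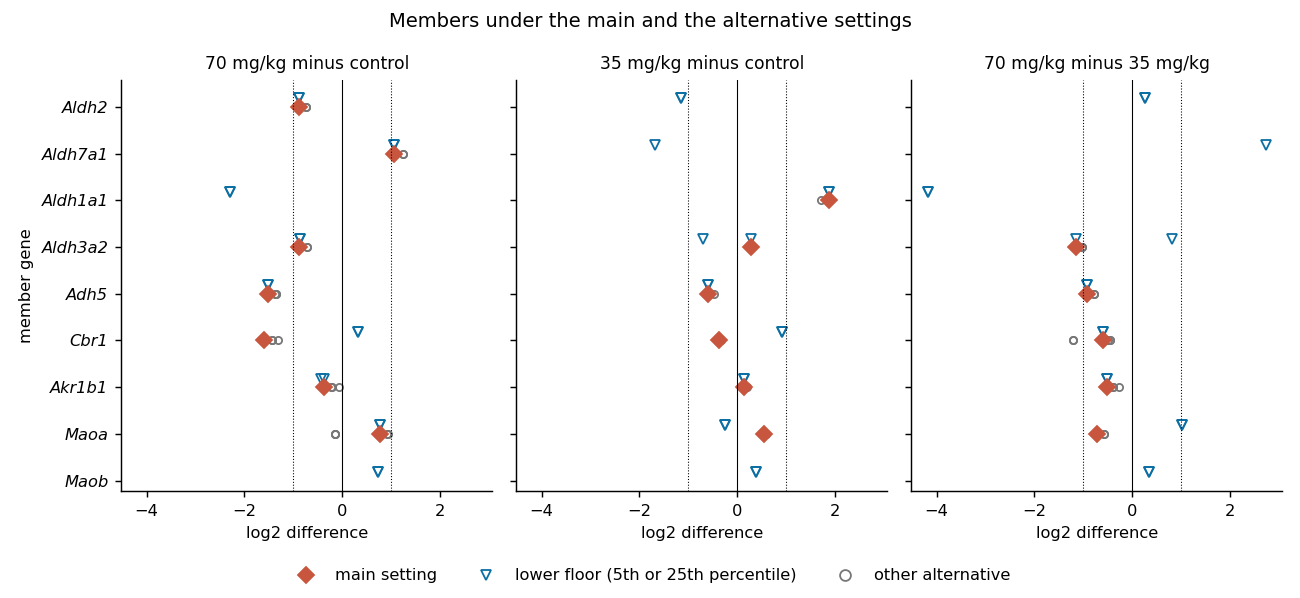
Log2 difference of each member in the 3 comparisons under the main setting (diamonds), under floors at the 5th or 25th percentile (triangles, drawn slightly raised) and under the other alternatives (circles), with dotted lines at 2-fold. Adh5 and Aldh7a1 at 70 mg/kg stay in place wherever they were measured, whereas Cbr1 at 70 mg/kg moves from -1.59 to 0.32. Adh5 has 1 probe set and Aldh7a1 has 2 from a single sequence, so little but the scalings could move them.

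Beyond the members, a list of 69 other genes of aldehyde and amine metabolism was examined, 33 of them on the array. At 70 mg/kg, 18 were measured, of which 0 were at least 2-fold higher and 2 lower, against 19.7% and 23.2% of all genes. The 2 were Adh1c, a classical alcohol dehydrogenase of the same gene family as Adh5, at -2.63 (from 1428 to 230), and the sorbitol dehydrogenase Sord, which acts after aldose reductase in the polyol pathway, at -2.04 on 2 probe sets (-2.74 and -1.34). A second Adh1c probe set went the other way, from 32.1, below the floor, to 257. The 70 mg/kg values of Adh1c (230) and of both Sord probe sets (204 each) lie close to the floor. The list's median was -0.34.

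At 35 mg/kg, 22 of these genes were measured, with 4 at least 2-fold higher and 4 lower, against 16.8% and 16.3% of all genes. Higher were the lysyl oxidase relative Loxl1, a copper amine oxidase that crosslinks elastin, at 1.52 on 2 probe sets (0.73 and 2.32), the dopamine transporter Slc6a3 at 1.78, and Akr1c14 (1.38) and Pnmt (1.31). Lower were the aflatoxin aldehyde reductase Akr7a2 at -1.66, Sord at -1.58, the organic cation transporter Slc22a3 at -1.18 and the serotonin transporter Slc6a4 at -1.40. A second Akr7a2 probe set from the same accession went the other way, from 178, below the floor, to 718, and so did a second Slc22a3 probe set, from below the floor to 393, at least 2.09-fold higher. Between the doses 18 were measured, with 1 at least 2-fold higher at 70 mg/kg (Slc6a4, 1.15) and 6 lower, of which Adh1c differed most, by -2.67, against 14.4% higher and 20.9% lower of all genes. Akr1c14, Pnmt, Slc6a4 and, below, Hagh and Xdh are named after their values were seen.

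By role at 70 mg/kg, the 3 measured aldehyde dehydrogenases of the list, Aldh3a1 (-0.45), Aldh6a1 (-0.33) and Aldh5a1 (0.26), were all within 2-fold of control on the probe sets measured on both arrays. So were the 3 amine oxidases, Aoc1, the diamine oxidase (-0.54), Lox (0.51) and Loxl1 (-0.35). The 8 measured genes of monoamine synthesis, conjugation and transport were within 2-fold by their gene differences, among them Tph1 (0.80), Slc22a3 (-0.77) and Sult1a1 (-0.74). For Slc6a4 this was the median (-0.25) of 2 probe sets that disagreed, at -1.09, past 2-fold, and 0.60. Other probe sets of Lox and Sult1a1 had bounds past 2-fold: a Lox probe set read 672 in control and lay below the floor at 70 mg/kg, at least 3.57-fold lower, and a Sult1a1 probe set lay below the floor in control and read 463, at least 2.46-fold higher. Adh7 was at -0.01. Akr1c3 was at -0.71, the median of 2 probe sets that disagreed, at -1.37, past 2-fold, and -0.06. The glyoxalase Hagh read 902 in control and lay below the floor at both doses, at least 4.79-fold lower at each, and the xanthine oxidase gene Xdh was below the floor on every array. In all, 19 probe sets of the list were above the floor on only 1 of the control and 70 mg/kg arrays, of which 3 had a bound of at least 2-fold higher and 7 of at least 2-fold lower (15.8% and 36.8%), against 27.7% and 25.5% of 2347 such probe sets over all genes. For 35 mg/kg there were 9, with 3 at least 2-fold higher and 3 lower (33.3% each), against 20.8% and 22.0% of 1780. Aoc3, which encodes the vascular amine oxidase that acts on allylamine, had no probe set with its symbol alone and was not analysed here.

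**Figure D5:**
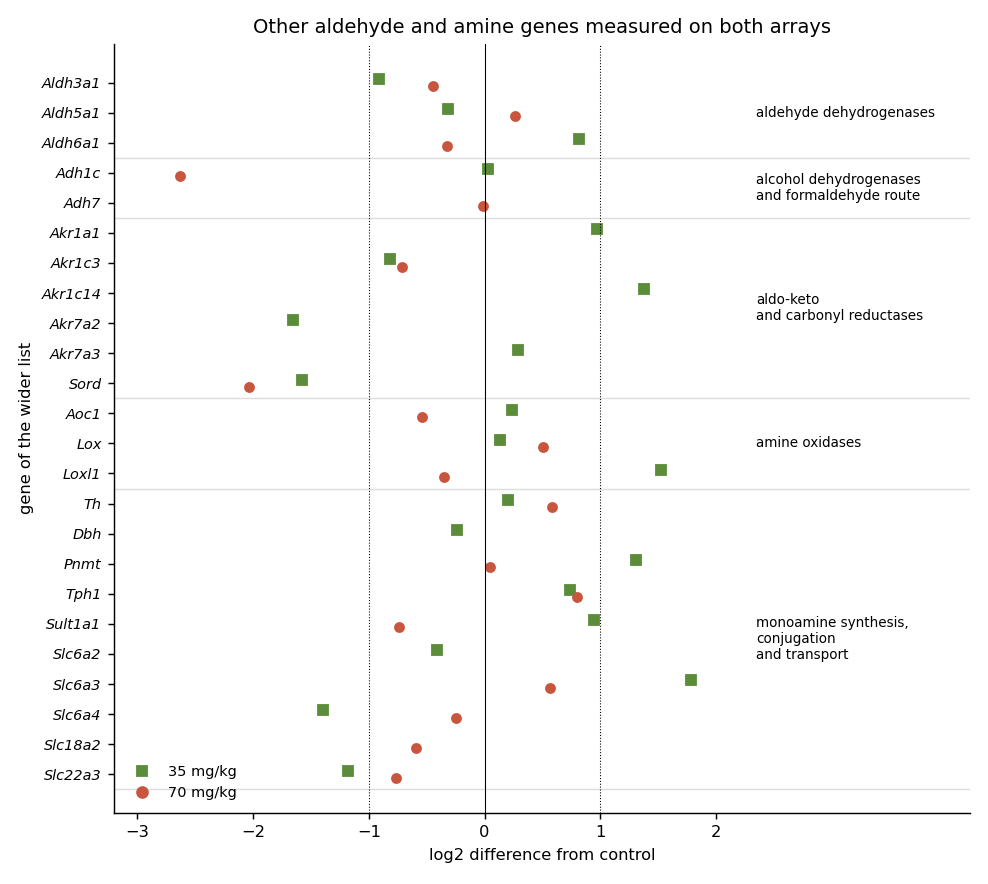
Log2 difference from control at 35 mg/kg (squares) and 70 mg/kg (circles) for each gene of the wider list that was measured on both arrays, grouped by role, with dotted lines at 2-fold. Adh1c and Sord are the only circles outside the dotted lines, while 4 squares lie beyond each line.

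For each of the 5 members measured on all arrays, the gene most like it over the 3 arrays was sought by the Euclidean distance of log2 values after subtracting each gene's own mean, among 2113 other genes. The nearest were Defb1 for Aldh3a2 (distance 0.014), RT1-DOa for Adh5 (0.037), Tst for Cbr1 (0.019), Prl for Akr1b1 (0.031) and Bcat1 for Maoa (0.021). With 3 arrays such likeness is common, and between 166 and 354 genes lay within 0.5 of each of these members.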

How the data were processed

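The table deposited by the authors gives linear intensities, 1 for each probe set on each array. The software, the array scaling and the genome build behind it are not stated in the sources used here. These deposited intensities had a mean of 500.2 to 500.4 on each array after trimming 2% of probe sets at each end, so they had been scaled before deposit. Of 8799 probe sets, 59 control probe sets were left out, and 7006 of the 8740 kept had exactly 1 gene symbol, 308 several and 1426 none. By gene ID, 6985 matched GRCr8, which changed 0 symbols.

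Each array was scaled to the mean of the 3 medians (shifts of 0.06, 0.04 and -0.09 on the log2 scale for control, 35 and 70 mg/kg), the 40th percentile of all scaled values served as the floor, and log2 was taken (Python 3.11.15, pandas 2.3.3). The calculation was tested on simulated data. Precision is limited by the number of arrays. Named were all members, up to 3 genes per role of the wider list with the largest absolute difference at 70 mg/kg, 1 such gene for 35 mg/kg, and the gene nearest each member. The members and lists were chosen with earlier results of these data known. The 10 alternatives were other scalings (as deposited, quantile, common trimmed mean), floors (5th, 25th and 55th percentile) and uses of the probe sets (brightest, mean, without less specific ones, above the floor on all arrays).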

Additional observations from a re-analysis of the deposited data

Results flagged for a closer look

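On 7 member probe sets the doses lay on opposite sides of control. These differences were not tested, since each group had 1 array. The share of all probe sets with such an order was not computed, so the count does not show a trait particular to the members. Aldh1a1 was above control at 35 mg/kg and below it at 70 mg/kg, with a fold of at least 13.7 between the doses. The reverse order was read for the 2 Aldh7a1 probe sets, at least 2.09-fold and 3.12-fold higher at 70 than at 35 mg/kg, and for the Maoa probe set S45812_s_at, at least 4.12-fold higher. Above control at 35 mg/kg and below it at 70 mg/kg were also Aldh3a2 (rc_AA996484_g_at, a log2 difference of -1.16 between the doses), Akr1b1 (M60322_at, -0.515) and Maoa (D00688_s_at, -0.71). For the last, 70 mg/kg and control read alike with the values as deposited. The spiked control transcripts, which the comparisons do not use, had a median ratio to their control values of 3.81 at 35 mg/kg and of 28.8 at 70 mg/kg.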

How the results depend on the processing

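The values as deposited and the common trimmed mean moved no count of members or of the wider list by over 1.5 times, and quantile normalization moved 1, the wider list's count higher at 70 mg/kg, from 0 to 1. Of 150 alternative values of counts and medians, 123 stayed near the main value, and 159 of 166 for single members moved by less than the probe set SD with no turn of a difference past 2-fold. The floor moved most, because it decides which dim probe sets enter.

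With a floor at the 5th percentile the members' median was -0.24 at 35 mg/kg and 0.26 between the doses, both of reversed sign, 2 members were lower at 35 mg/kg and 2 higher at 70 than at 35 mg/kg, Aldh3a2 was at 0.81 between the doses, and the wider list had 4 genes higher and 9 lower at 70 mg/kg, 7 lower at 35 mg/kg and 4 higher between the doses. Under either of the floors at the 5th or 25th percentile Cbr1 was at 0.32 for the higher dose and 0.91 for the lower, and Maoa at -0.24 for the lower and 1.02 between the doses, all of turned sign. So was Aldh3a2 at 35 mg/kg (-0.70) at the 5th, and Maoa at 70 mg/kg (-0.15) at the 55th, with the brightest probe set and with probe sets above the floor on all arrays. In all, 13 of the 166 values of single members turned sign. At the 25th percentile 1 member was lower at 35 mg/kg, 1 higher and 2 lower between the doses, and the wider list had 6 genes lower at 70 mg/kg and 3 higher and 10 lower between the doses. At the 55th percentile 0 members were higher at 70 mg/kg, and the wider list had 0 lower at 70 mg/kg and 1 lower at 35 mg/kg. The brightest probe set gave 2 members lower between the doses. Without less specific probe sets 1 member was lower at 70 mg/kg and 0 between the doses, and the wider list had 0 higher and 1 lower at 35 mg/kg and 2 lower between the doses. With probe sets above the floor on all arrays 0 members were higher at 70 mg/kg, 0 higher at 35 mg/kg and 2 lower between the doses. These alternatives test other numbers of genes than the main setting.

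Adh5 at 70 mg/kg (-1.51 to -1.35, 11 settings), Aldh1a1 at 35 mg/kg (1.73 to 1.90, 10 settings) and Aldh7a1 at 70 mg/kg (1.03 to 1.25, 9 settings) stayed past 2-fold wherever they were measured. Adh5 and Aldh1a1 have 1 probe set each, so only the scalings could move their values. The other settings only decided whether they were measured. The 2 probe sets of Aldh7a1 were designed on a single sequence. No paired analysis was possible because each group had 1 array. Signal near the floor limits Aldh2, Aldh7a1 and Maob.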

Other observations

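Akr1c14, an aldo-keto reductase of steroids, had a probe set with the same order as Aldh1a1, at 587 in control, 1526 at 35 mg/kg and 145, below the floor, at 70 mg/kg. Its other probe set went the other way, at 24.8 and 70.9, both below the floor, and 383 at 70 mg/kg. Loxl1, an amine oxidase of elastic fibres, was also highest at 35 mg/kg on both of its probe sets, at 605, 3020 and 424 and at 400, 662 and 352. These genes were singled out after their values were seen.

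Being above the floor in control and at 70 mg/kg but not at 35 mg/kg described 4 of the 15 member probe sets (of Aldh2, Aldh7a1 and Maoa) and 6.42% of 7006 probe sets. This pattern was picked after the values were seen, so the shares are no evidence that it is particular to the members. The 2 Aldh7a1 probe sets were designed on a single sequence, and 1 of them read 193 in control. That value and the 194 of Aldh2 at 70 mg/kg lie close to the floor of 188. Both Sord probe sets were lower at each dose than in control, at 515, 330 and 204 and at 1357, 237 and 204.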
